A study of Homo sapiens with 4 samples.

Results

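Glycolysis breaks glucose down to pyruvate in the cytosol, and its genes fall into enzymes, membrane transporters and regulators. Glucose enters through GLUT transporters, is trapped by hexokinases as glucose 6-phosphate, and leaves the pathway as pyruvate for mitochondria or as lactate exported by monocarboxylate transporters. Many of these genes, together with others for pH control and mitochondrial turnover, can be induced by the hypoxia-inducible factors HIF-1 and HIF-2, whose alpha subunits are hydroxylated and degraded when oxygen is present. The 39 genes described here, of 63677 genes in the count files, were taken by symbol, and all 39 had an identifier on a primary chromosome. They comprised 17 glycolytic enzymes, 4 transporters, 6 regulators of glycolysis and 12 genes of the hypoxia pathway.

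Their levels were measured by RNA-seq in IMR90, normal human lung fibroblasts, at passage 5. Cells of the isolates I90-10 and I90-79 were transfected with a non-targeting control siRNA (NTC) or with siRNA against HMGB1, a chromatin architectural and RNA-binding protein, and were collected after 72 h. Each group had 2 libraries of poly(A) RNA, with replicate 1 from I90-10 and replicate 2 from I90-79, so that both isolates occurred in both groups. HMGB1 itself was at 181 and 237 CPM (read counts scaled to library size) in control and at 16.0 and 18.9 CPM in knockdown libraries (log2-fold change −3.59, standard error 0.19, adjusted p = 0.00751). The labels name no hypoxic culture, and RNA levels do not report HIF protein.

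The libraries held between 29861687 and 35317010 counts on genes, and the 10 most abundant genes took 5.63% to 8.52% of them. All 8 fibroblast markers were tested, with summed levels per exon length (TPM) from 9402 to 16519 that overlapped between the groups. With the isolate fitted as a block (defined with the calls), LUM was called up and THY1 and PDGFRB were called down. Of the genes that mark other cell types, CDH5, CD3E, MS4A1 and NKX2-1 had 0 counts in every library, which allows up to 0.0849 to 0.1 CPM for counting error alone. CDH1 had no more than 0.0340 CPM and EPCAM no more than 0.681 CPM. The 4 immune markers summed to 0.0918 to 0.376 TPM in a library, and 0 of them were tested. Of the endothelial markers looked up, 3 were found, and the 2 tested were higher in both isolates (log2-fold changes of 0.43 and 1.57). KRT18, which fibroblasts can also express, was at 39.5 and 52.8 CPM in control and at 65.9 and 88.8 CPM in knockdown libraries. KRT18 and the endothelial gene VWF, at 0.923 to 4.16 CPM, were called up with the block, and their part in the results below was not tested. In bulk RNA, fewer cells expressing a gene and less RNA per cell cannot be told apart.

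Because HIF binds the hypoxia response element, whose core reads ACGTG or GCGTG, promoters from the RefSeq table (GRCh38.p14, 250 bases before to 50 after the gene's start) were searched for this core on both strands. The table held 34 of the 39 genes, with 1 start for each, which for some genes may be an alternative start. SLC2A3, SLC16A1, PFKFB2, BNIP3L and NDRG1 were not matched. A core was present in 24 of the 34 promoters (70.6%), against 63.0% of the promoters of 11104 tested genes and 48.4% of all 27305 promoters. These 4 promoters are shown because the genes span the patterns below, namely a hexokinase that was higher, a lactate dehydrogenase subunit that was not called, and both HIF alpha subunits. Capitals mark a core on either strand, so that CACGT and CACGC are cores read from the other strand and each CACGTG counts as 2 overlapping cores. The windows lie on the plus strand at chr2:74833877-74834176 (HK2), chr11:18394313-18394612 (LDHA), chr14:61695263-61695562 (HIF1A) and chr2:46297157-46297456 (EPAS1).
HK2: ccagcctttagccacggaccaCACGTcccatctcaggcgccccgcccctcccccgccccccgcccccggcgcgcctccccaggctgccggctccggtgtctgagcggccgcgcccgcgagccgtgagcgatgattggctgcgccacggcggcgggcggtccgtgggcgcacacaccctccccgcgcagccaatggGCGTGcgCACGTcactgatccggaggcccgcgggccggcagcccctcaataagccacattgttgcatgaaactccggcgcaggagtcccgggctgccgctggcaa
LDHA: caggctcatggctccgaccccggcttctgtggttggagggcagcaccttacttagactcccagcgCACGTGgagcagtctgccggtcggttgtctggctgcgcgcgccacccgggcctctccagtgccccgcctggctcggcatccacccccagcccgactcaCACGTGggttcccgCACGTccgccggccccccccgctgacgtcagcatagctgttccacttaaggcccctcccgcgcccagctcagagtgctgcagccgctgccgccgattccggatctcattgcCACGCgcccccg
HIF1A: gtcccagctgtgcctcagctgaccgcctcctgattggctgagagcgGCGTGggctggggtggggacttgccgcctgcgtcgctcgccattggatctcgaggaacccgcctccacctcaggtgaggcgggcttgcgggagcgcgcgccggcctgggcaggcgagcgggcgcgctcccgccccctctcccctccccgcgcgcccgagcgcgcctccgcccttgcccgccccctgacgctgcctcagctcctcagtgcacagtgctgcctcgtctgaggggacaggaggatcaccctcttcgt
EPAS1: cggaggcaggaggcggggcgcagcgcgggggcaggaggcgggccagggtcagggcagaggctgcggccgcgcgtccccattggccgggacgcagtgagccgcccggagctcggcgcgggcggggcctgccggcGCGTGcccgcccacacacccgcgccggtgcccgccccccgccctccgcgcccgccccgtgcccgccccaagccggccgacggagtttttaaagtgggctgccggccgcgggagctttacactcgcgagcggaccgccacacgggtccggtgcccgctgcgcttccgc

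The promoter of LDHA held 6 cores, that of HK2 held 3, and those of HIF1A and EPAS1 held 1 each. BNIP3 with 6 cores and ALDOC with 5 were the other promoters with 5 or more. A core was present in 8 of 10 promoters of hypoxia pathway genes and in 12 of 17 promoters of enzymes. For members called with the block, promoters with a core were 2 of 4 among those called down and 1 of 2 among those called up. Among those called down, the promoters without a core were those of PGAM1 and PDK1. For both, the start in the table may be an alternative one. A match describes letters in this window and does not show that HIF bound there.

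Of the 39 genes, 38 passed the filter on low counts and were tested with edgeR's quasi-likelihood test across 15398 genes. EGLN3, an oxygen-sensing prolyl hydroxylase, did not pass, with levels of 0.0640 to 0.208 CPM. Calls needed a Benjamini-Hochberg adjusted p under 0.01 together with a log2-fold change beyond 0.6 in either direction. By this rule 1 of the 38 genes was upregulated and 0 were downregulated upon HMGB1 knockdown, where 0.0649% of all genes were called higher and 0.136% lower. Without adjustment, 16 of the 38 had a p below 0.05, a larger share than the 28.3% of all genes, a difference that was not tested. At an adjusted p below 0.05 with no limit on the fold change, 3 genes were higher and 3 were lower, with 3.94% and 4.50% of all genes as background. A fit with a term for the isolate, the replicate block, called 3 genes up and 6 down, against 6.68% and 7.84% of all genes. DESeq2 called 3 up and 3 down, against 4.71% and 5.31% of all genes. After removal of 1 factor of unwanted variation (RUVs) it called 3 up and 2 down, against 4.96% and 5.4%. In what follows, a gene called with the replicate block but not in the filtered edgeR fit without it is said to be called only with the block. Both fits are given since both isolates contributed a library to each group. Other settings, some of which also called such genes, are given further below.

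**Figure D1:**
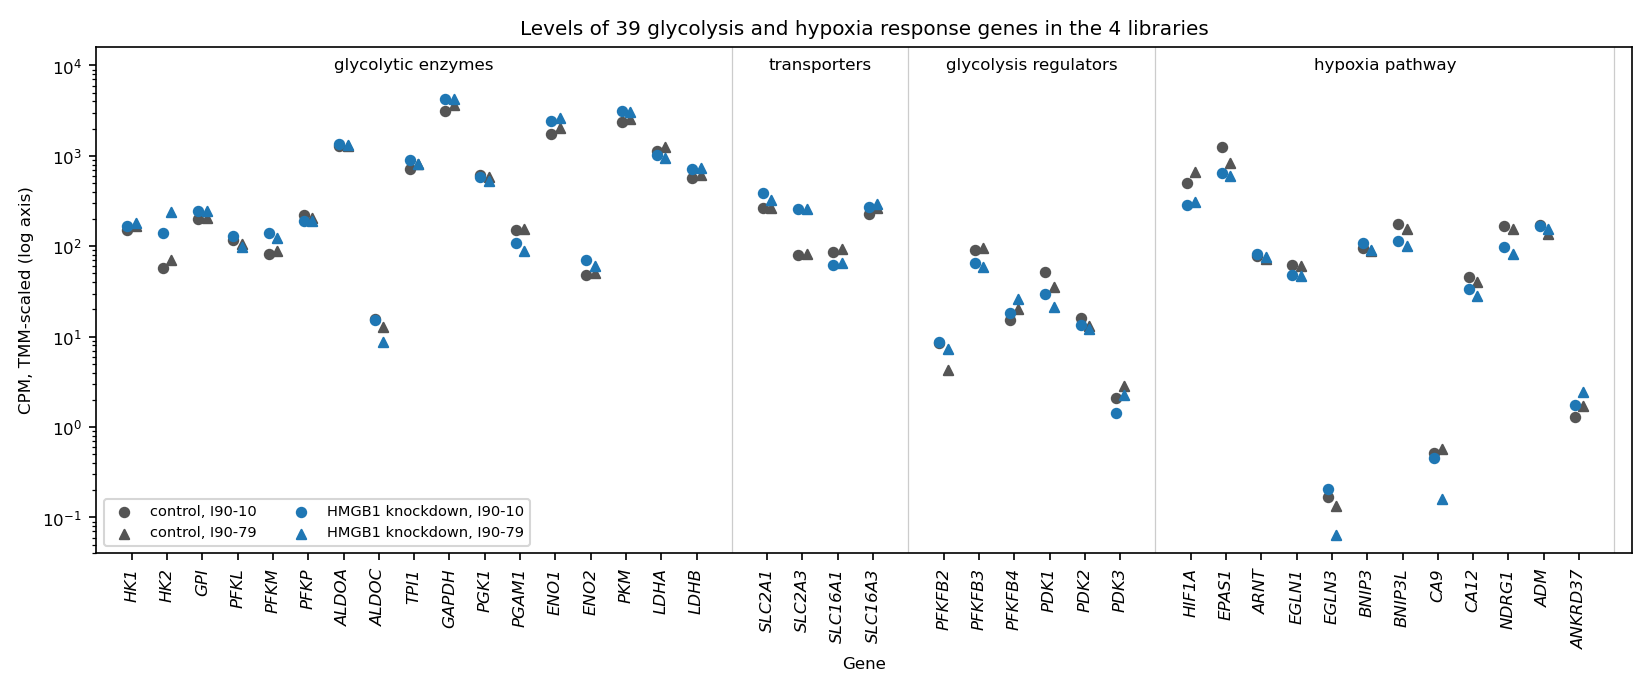
Levels of the 39 genes in each library, in CPM scaled by TMM (trimmed mean of M values) on a log axis, grouped by role, with circles for I90-10, triangles for I90-79, grey for control and blue for HMGB1 knockdown. The blue points lie apart from and above the grey points for HK2 and SLC2A3, and apart from and below them for HIF1A, PDK1 and NDRG1.

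The isolates gave a first check of direction. Relative to the control library of the same isolate, 19 of the 38 genes were higher in both knockdown libraries, 17 were lower in both, and 2 went opposite ways. Across all genes tested, 78.3% had the same direction in both isolates. Both knockdown libraries lay above both controls for 15 of the 38 genes (39.5%, against 29.8% of all genes) and below both for 13 (34.2%, against 30.2%). Role groups had medians of different sign. The median log2-fold change was 0.17 over the enzymes, 0.31 over the transporters, −0.31 over the regulators and −0.48 over the 11 hypoxia pathway genes tested, beside −0.0054 over all genes. For the enzymes it came to 0.103 when control replicate 1 was left out and to 0.257 when control replicate 2 was left out. For the enzymes, 11 of 17 (64.7%) had both knockdown libraries above both controls, and for the hypoxia pathway genes 7 of 11 (63.6%) had both below. The differences between role groups were not tested.

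**Figure D2:**
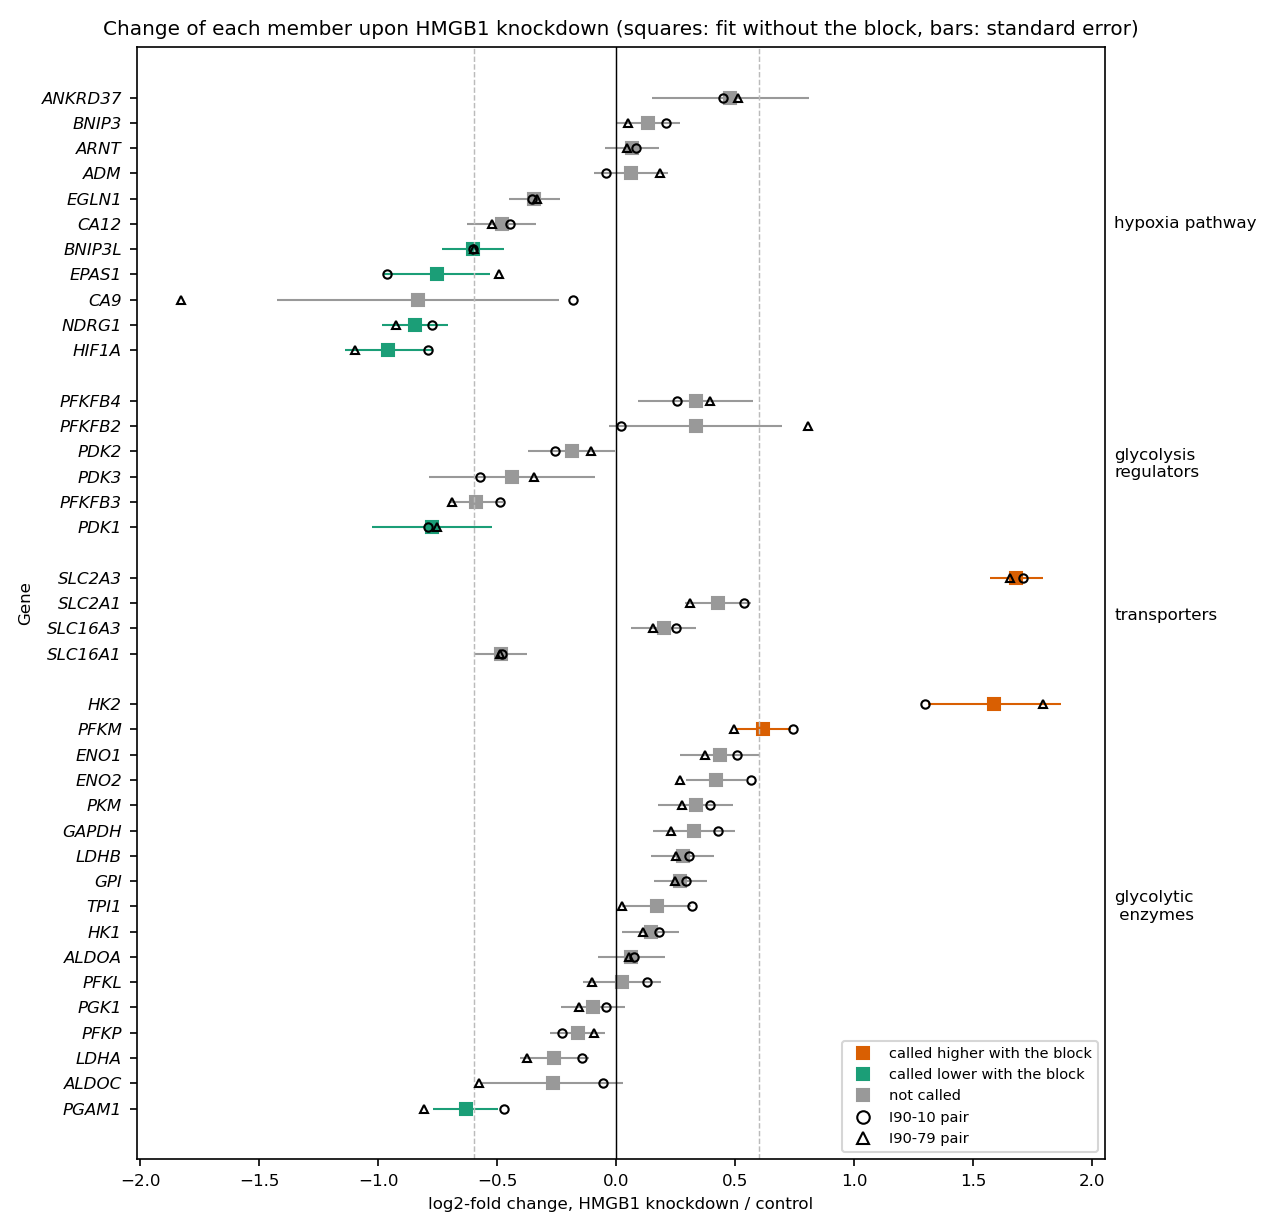
Log2-fold change of the 38 tested genes upon HMGB1 knockdown, by role, with squares for the edgeR fit without the isolate, bars for its standard error, circles and triangles for each isolate's own pair, and dashed lines at −0.6 and 0.6. SLC2A3 and HK2 lie farthest to the right, and of the 6 genes called down with the block, 4 belong to the hypoxia pathway.

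Of the 4 transporters, SLC2A3 was called and the other 3 were not. SLC2A3, which encodes the high-affinity glucose transporter GLUT3 (hg19, chr12:8071826-8088871), was at 79.5 and 83.1 CPM in control libraries and at 260.0 and 262 CPM in knockdown libraries. The replicates of each group lay close together and the groups were far apart, a 3.21-fold increase. Here and below, positions are those of the whole gene in the count files, and a count covers reads on any of its exons. SLC2A3 was the gene called without the block (log2-fold change 1.68, standard error 0.11, adjusted p = 0.00896 from edgeR). Its adjusted p was no higher than 0.0520 when 1 library was left out. Without knockdown replicate 1 or without knockdown replicate 2 its call was lost, as 0 genes of the whole table were then called, while its log2-fold change stayed between 1.65 and 1.71. Sequence shared with other genes made up 14.4% of the 50-base pieces of its transcripts. Counts on 3 pseudogenes named after it came to 0.00949% of its own over the 4 libraries, and counts on other genes that share its sequence were not examined.

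SLC2A1, which encodes GLUT1, the main glucose transporter of many cells, was at 267 and 265 CPM in control and at 388 and 328 CPM in knockdown libraries. Both knockdown libraries were above both controls, but the gene was not called (log2-fold change 0.43, adjusted p = 0.12, or 0.0150 with the block). On the per-length scale, SLC2A3 made up 16.9% and 17.6% of the summed level of SLC2A1 and SLC2A3 in control libraries, and 31.4% and 35.3% in knockdown libraries. On this scale, as in CPM, SLC2A1 stayed the more abundant of the pair in every library. The lengths used cover all annotated exons of a gene, so the level of each such share, here and below, depends on them.

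SLC16A1, which encodes the monocarboxylate transporter MCT1, was at 86.5 and 92.4 CPM in control and at 62.0 and 65.8 CPM in knockdown libraries. Its groups did not overlap, yet it was not called (log2-fold change −0.49, standard error 0.11, adjusted p = 0.0588), and with the block it missed the limit on the fold change (adjusted p = 0.00622). SLC16A3, which encodes the lactate exporter MCT4, was at 226 and 263 CPM in control and at 269 and 293 CPM in knockdown libraries (adjusted p = 0.392). The share of SLC16A1 in the summed per-length level of the pair was 34.8% and 32.9% in control and 24.4% and 23.9% in knockdown libraries.

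Among the enzymes, hexokinase 2 stood out. HK2, which with HK1 catalyses the first step of glucose use in most tissues (chr2:75061108-75120486), was at 57.2 and 69.6 CPM in control and at 141 and 241 CPM in knockdown libraries. The groups did not overlap, and the knockdown library of I90-79 was well above that of I90-10. The increase was 3.01-fold (log2-fold change 1.59, standard error 0.28), with an adjusted p of 0.0358 without and 0.000141 with the block, so that HK2 was called only with it. HK1, the widely expressed isoenzyme, was at 150 and 166 CPM in control and at 169.5 and 179.8 CPM in knockdown libraries (adjusted p = 0.473). HK2 therefore made up 28% and 29.8% of the summed per-length level of the pair in control libraries and 45.7% and 57.7% in knockdown libraries.

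PFKM, the muscle-type subunit of phosphofructokinase (chr12:48498922-48540187), was at 83.2 and 88.3 CPM in control and at 139 and 124 CPM in knockdown libraries, a 1.54-fold increase. It was called with the block (adjusted p = 0.00294) and not without it (log2-fold change 0.62, standard error 0.12, adjusted p = 0.0414). The platelet-type subunit PFKP was at 222 and 204 CPM in control and at 189.5 and 192 CPM in knockdown libraries (adjusted p = 0.406), and the liver-type subunit PFKL overlapped between the groups, from 98.8 to 130 CPM. PFKM took 16.2% and 18.3% of the summed per-length level of the 3 subunits in control and 26.2% and 25.2% in knockdown libraries. PFKP remained the most abundant subunit in all 4 libraries, at 53.9% or more.

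PGAM1, a phosphoglycerate mutase of the lower part of the pathway, went the other way. Its level (chr10:99185917-99193198) was 151 and 156 CPM in control and 109 and 89.3 CPM in knockdown libraries. The fall of 1.55-fold was called with the block (adjusted p = 0.00346) and not without it (log2-fold change −0.63, standard error 0.14, adjusted p = 0.0533). Of the 50-base pieces of PGAM1 transcripts, 40.0% also occur in other genes, and reads counted on 13 genes named as its pseudogenes came to 0.397% of its own.

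The most abundant enzymes had smaller differences, none of them called. GAPDH, glyceraldehyde 3-phosphate dehydrogenase, was at 3149 and 3637 CPM in control and at 4240.0 and 4269 CPM in knockdown libraries (log2-fold change 0.33, adjusted p = 0.280, or 0.0398 with the block). ENO1, the main enolase, was at 1724 and 2015 CPM in control and at 2447 and 2606 CPM in knockdown libraries (log2-fold change 0.43, adjusted p = 0.167, or 0.0112 with the block). PKM, pyruvate kinase, was at 2399 and 2528 CPM in control and at 3148 and 3058 CPM in knockdown libraries (log2-fold change 0.33, adjusted p = 0.234, or 0.0329 with the block). All 3 were above both controls in both knockdown libraries. The aldolase ALDOA and the phosphoglycerate kinase PGK1 had log2-fold changes of 0.06 and −0.10. GAPDH and ALDOA share sequence or exons with other genes, as 14.2% of the exonic bases of GAPDH overlap another gene and 37.4% of the 50-base pieces of ALDOA occur elsewhere. Summed over the 17 enzymes, the per-length level was 12211 and 13899 TPM in control and 14465 and 14997 TPM in knockdown libraries.

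The lactate dehydrogenase subunits had opposite signs, and neither was called. LDHA, whose subunit favours lactate production, was at 1131 and 1238 CPM in control and at 1024 and 954 CPM in knockdown libraries (log2-fold change −0.26, adjusted p = 0.298). LDHB was at 575 and 615 CPM in control and at 710.0 and 733 CPM in knockdown libraries (log2-fold change 0.28, adjusted p = 0.235). LDHA took 48.6% and 49.2% of their summed per-length level in control and 40.9% and 38.5% in knockdown libraries, without overlap. The lengths used were 6210 bases for LDHA and 2983 bases for LDHB, and in CPM LDHA was the higher in every library. For LDHB, 29.4% of the 50-base pieces occur in other genes.

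**Figure D3:**
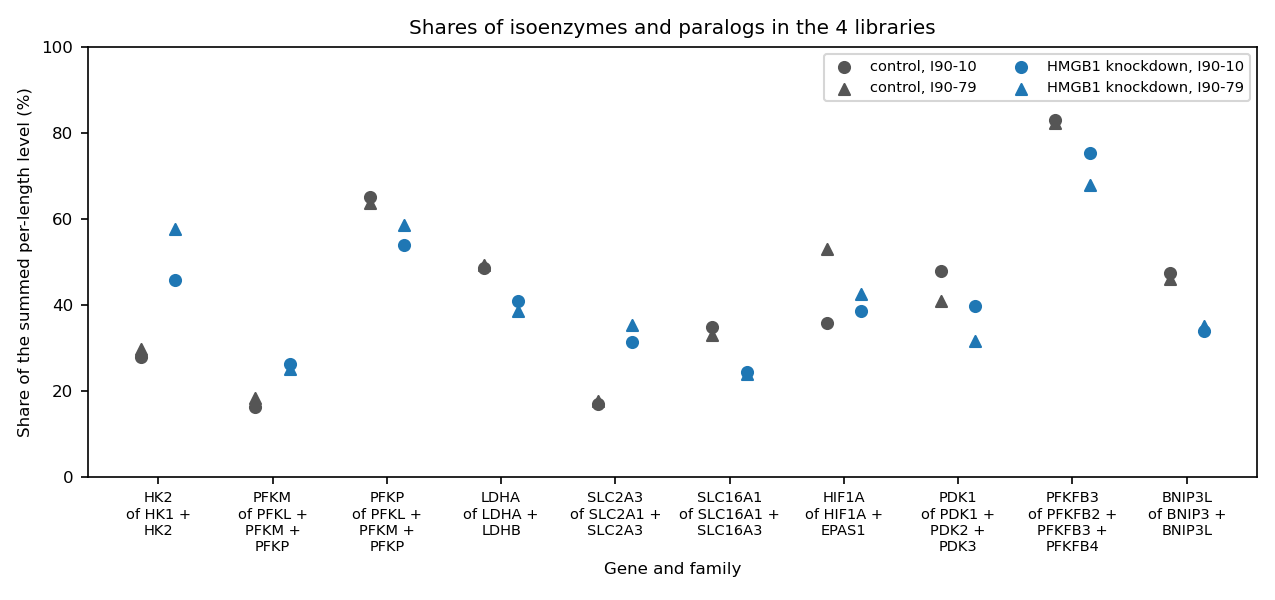
Share of 1 gene in the summed per-length level of its family, in percent, for 10 genes in the 4 libraries, with grey for control, blue for HMGB1 knockdown, circles for I90-10 and triangles for I90-79. HK2, PFKM and SLC2A3 took a larger share in both knockdown libraries than in both controls, PFKP, LDHA, SLC16A1, PDK1, PFKFB3 and BNIP3L a smaller one, and HIF1A overlapped.

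Of the regulators, those that set fructose 2,6-bisphosphate and those that gate pyruvate entry into mitochondria were measured. PFKFB3, a bifunctional enzyme that mainly makes fructose 2,6-bisphosphate, the activator of phosphofructokinase, was at 90.9 and 95.2 CPM in control and at 64.8 and 58.9 CPM in knockdown libraries. The groups were separate, with an adjusted p of 0.0429 (log2-fold change −0.59, standard error 0.11), and was not called. With the block its adjusted p was 0.00346, but the fold change stayed short of the limit. PFKFB4 overlapped between the groups, at 15.3 and 20.1 CPM in control and 18.2 and 26.4 CPM in knockdown libraries (log2-fold change 0.33, standard error 0.24, adjusted p = 0.414). PFKFB2 was at 4.23 to 8.69 CPM and also overlapped. The share of PFKFB3 in the summed per-length level of the 3 genes was 83.0% and 82.3% in control and 75.3% and 67.9% in knockdown libraries.

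PDK1 is a kinase that inhibits pyruvate dehydrogenase (chr2:173420101-173489823). Its level was 51.8 and 35.7 CPM in control and 30.0 and 21.1 CPM in knockdown libraries. In both groups I90-10 was the higher isolate. Within each isolate the fall was of similar size (log2 differences of −0.79 and −0.76). The 1.71-fold decrease was called with the block (adjusted p = 0.00105) and not without it (log2-fold change −0.78, standard error 0.25, adjusted p = 0.123). It was −0.48 without control replicate 1 and −0.50 with RUVs. PDK2 and PDK3, further kinases of the family, overlapped between the groups, and 38.6% of the exonic bases of PDK2 lie under another gene.

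RNA of both HIF alpha subunits was lower in the knockdown libraries. HIF1A, the alpha subunit of HIF-1 (chr14:62162231-62214976), was at 499.6 and 668 CPM in control and at 289 and 313 CPM in knockdown libraries. The decrease was 1.94-fold (log2-fold change −0.96, standard error 0.18), with an adjusted p of 0.0416 without and 0.000547 with the block, which called it. EPAS1, the alpha subunit of HIF-2 (chr2:46520806-46613836), was at 1266 and 844 CPM in control and at 649.7 and 600.2 CPM in knockdown libraries. It fell 1.69-fold and was likewise called only with the block (log2-fold change −0.76, standard error 0.23, adjusted p = 0.103, or 0.00367 with the block). Without control replicate 1 the log2-fold change of EPAS1 was −0.44. The isolates differed in the controls, where I90-10 had more EPAS1 and less HIF1A than I90-79. The share of HIF1A in the summed per-length level of the 2 alpha subunits overlapped between the groups, at 35.9% and 52.9% in control and 38.6% and 42.5% in knockdown libraries.

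The partner and the oxygen sensors of the HIF alpha subunits had smaller differences. ARNT, the shared beta subunit, was at 77.7 and 73.2 CPM in control and at 82.2 and 75.5 CPM in knockdown libraries (log2-fold change 0.06, standard error 0.11, adjusted p = 0.747). EGLN1, the main prolyl hydroxylase that marks HIF alpha for degradation, was at 61.8 and 59.8 CPM in control and at 48.2 and 47.5 CPM in knockdown libraries. It was not called (log2-fold change −0.34, adjusted p = 0.112, or 0.0290 with the block), and 55.1% of the 50-base pieces of its transcripts occur in other genes.

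Among the HIF targets in the hypoxia pathway group, NDRG1 and BNIP3L were called down with the block, and the others were not called. NDRG1, a stress-responsive gene linked to growth arrest, was at 169 and 156 CPM in control and at 98.6 and 82.0 CPM in knockdown libraries. Its 1.80-fold decrease had an adjusted p of 0.0299 without and 0.000496 with the block, and was called only with the block (log2-fold change −0.85, standard error 0.14). BNIP3L, a mitophagy receptor, was at 174 and 154 CPM in control and at 115 and 101 CPM in knockdown libraries. It fell 1.52-fold, called only with the block (log2-fold change −0.60, standard error 0.13, adjusted p = 0.0539, or 0.00197 with the block). Its relative BNIP3 overlapped between the groups, at 94.5 and 88.3 CPM in control and 109 and 91.3 CPM in knockdown libraries (adjusted p = 0.550). BNIP3L took 47.5% and 46.0% of the summed per-length level of the pair in control and 34.0% and 35.2% in knockdown libraries.

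CA12, a carbonic anhydrase of the cell surface, was at 45.9 and 40.6 CPM in control and at 33.7 and 28.2 CPM in knockdown libraries (log2-fold change −0.48, adjusted p = 0.106, or 0.00857 with the block, under the limit on the fold change). ADM, which encodes the vasodilator peptide adrenomedullin, overlapped between the groups at 136 to 173 CPM. ANKRD37, an ankyrin-repeat gene often used as a hypoxia marker, was low, at 1.29 and 1.71 CPM in control and 1.77 and 2.43 CPM in knockdown libraries (log2-fold change 0.48, standard error 0.33, adjusted p = 0.393). CA9, another carbonic anhydrase used as a marker of hypoxia, was near the limit of detection at 0.160 to 0.570 CPM, with 5 counts in knockdown replicate 2. For ANKRD37 35.2% and for CA9 38.5% of the exonic bases overlap another gene.

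The 3′ untranslated regions were also examined. The word GCAGTT had been picked in an earlier search of the same data because genes that hold it tended to be lower, so its use here is a description and not independent of the fold changes. It occurred in the 3′ untranslated regions of 16 of the 38 genes tested (42.1%), the share among 12677 tested genes being 42.2%. The median log2-fold change was −0.48 over the 16 genes with the word and 0.105 over those without, beside −0.115 and 0.07 for all genes. The 6 genes called down with the block all held it, from 1 copy in PGAM1, EPAS1 and BNIP3L to 5 in PDK1, but so did HK2 with 2 copies and PFKM and SLC2A3 with 1 each, the 3 genes called up. Holding the word went with length, as the median region was 2456 bases for members with it and 1288 bases for members without, and 3132 and 1251 bases for all genes.

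Other genes of the same pathways, taken from lists that hold no member, were examined in the same fits. Of 46 other genes of glycolysis and pyruvate use, 30 were tested. Without the block 0 were called, while 13 had an unadjusted p below 0.05, a larger share than the 28.3% of all genes. With the block 6 were called up and 3 down. These are 20% and 10% of the list, beside 6.68% and 7.84% of all genes. PDHX, the E3-binding component of the pyruvate dehydrogenase complex, was at 8.65 and 11.2 CPM in control and at 48.5 and 61.3 CPM in knockdown libraries (log2-fold change 2.47, standard error 0.20, adjusted p = 0.0104, or 1.75e-05 with the block). BPGM, which makes 2,3-bisphosphoglycerate, was at 34.8 and 30.5 CPM in control and at 90.6 and 92.2 CPM in knockdown libraries (adjusted p = 0.0104, or 7.51e-05 with the block). ADPGK, an ADP-dependent glucokinase, fell from 105 and 114 CPM in control to 39.4 and 41.1 CPM in knockdown libraries (adjusted p = 0.0104, or 6.44e-05 with the block). These 3 genes missed the threshold without the block by a small margin, and BPGM and ADPGK had replicates close to each other. PDP2, a phosphatase that activates pyruvate dehydrogenase, and SLC2A13, a myo-inositol transporter, were called up with the block, and PCK2, the mitochondrial phosphoenolpyruvate carboxykinase, was called down. The pyruvate dehydrogenase genes did not move together. PDHA1 was also called down with the block, at 62.9 and 62.5 CPM in control and 42.5 and 37.5 CPM in knockdown libraries (adjusted p = 0.00226 with the block). PDHB, DLAT and DLD were not called.

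Of 54 other genes of the hypoxia pathway, 52 were tested. Without the block 0 were called, while 21 had an unadjusted p below 0.05, a larger share than the 28.3% of all genes. With the block 7 were called up and 9 down. These are 13.5% and 17.3% of the list, beside the same 6.68% and 7.84% of all genes. TFRC, the transferrin receptor, was at 159 and 206 CPM in control and at 641 and 672 CPM in knockdown libraries (log2-fold change 1.85, standard error 0.17, adjusted p = 0.0113, or 4.51e-05 with the block). KDM3A, a histone demethylase induced by hypoxia, was at 86.3 and 72.4 CPM in control and at 26.7 and 23.6 CPM in knockdown libraries (log2-fold change −1.66, standard error 0.15, adjusted p = 0.0104, or 4.94e-05 with the block). PPP1R3C, a glycogen-targeting subunit of protein phosphatase 1, was at 57.0 and 22.0 CPM in control and at 7.55 and 5.16 CPM in knockdown libraries (adjusted p = 0.0414, or 0.000101 with the block). The 2 controls of PPP1R3C were far apart, and both exceeded the knockdown libraries. P4HA2, a collagen prolyl hydroxylase, was called down with the block, while HMOX1, heme oxygenase 1, and ERO1A, an oxidase of the endoplasmic reticulum, were called up. The median log2-fold change was 0.04 over the other glycolysis and pyruvate genes and −0.03 over the other hypoxia pathway genes, so that the lower median of the hypoxia members was not seen in the longer list, a difference that was not tested.

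**Figure D4:**
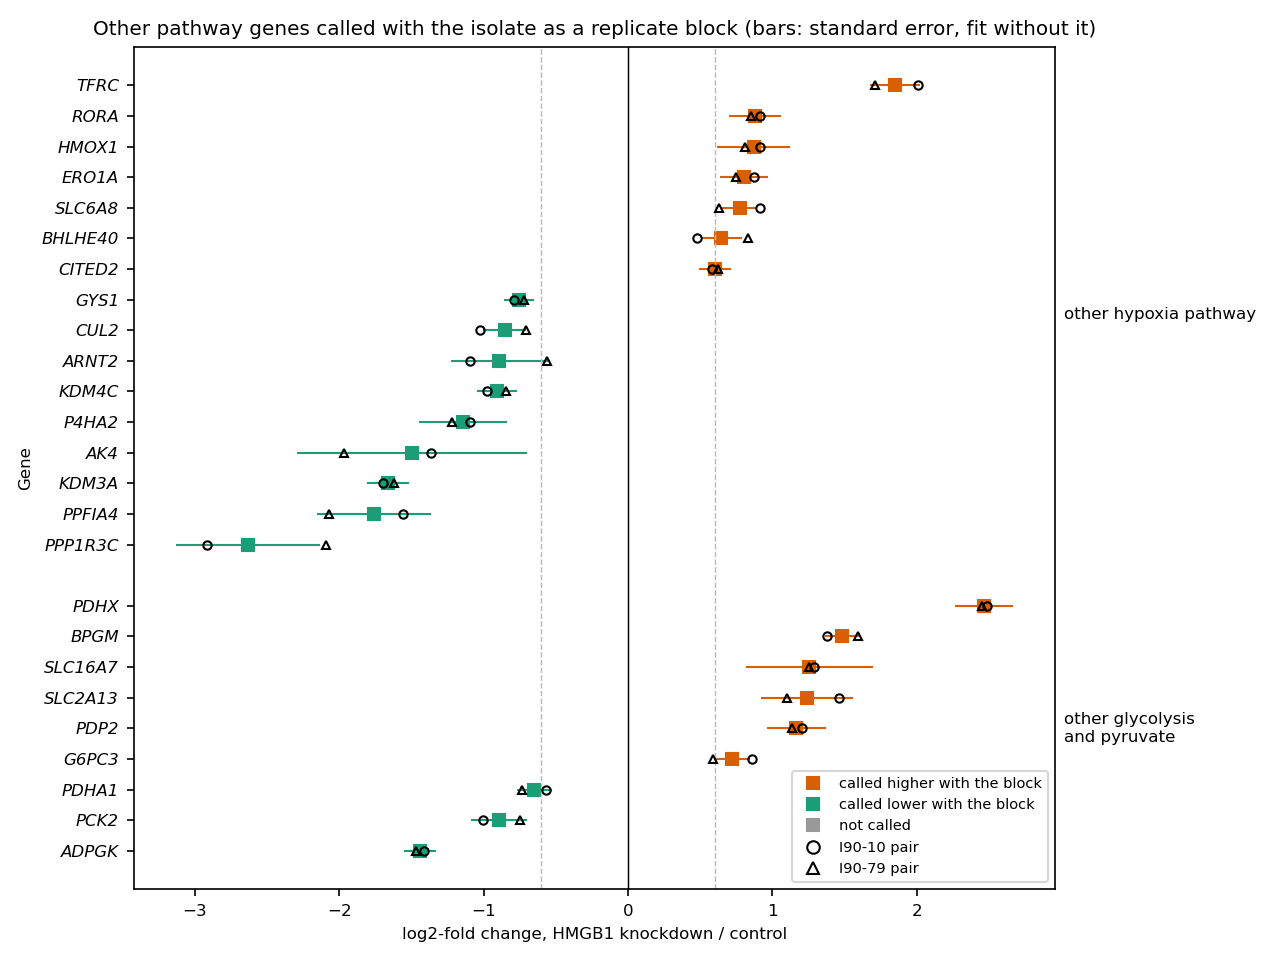
Log2-fold change of the 9 glycolysis and pyruvate genes and 16 hypoxia pathway genes outside the 39 that were called with the replicate block for the isolate, with squares for the edgeR fit without the block, bars for its standard error, and circles and triangles for the pairs of I90-10 and I90-79. Of the hypoxia pathway genes shown, 7 lie to the right and 9 to the left of 0, and of the glycolysis and pyruvate genes 6 lie to the right and 3 to the left.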

How the data were processed

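Poly(A) RNA of IMR90 was made into TruSeq libraries. The authors mapped reads to hg19 with STAR, counted unique reads on genes with featureCounts and deposited raw counts for each of the 4 libraries. Tool versions and the strand setting are not given in the sources used here, so reads of overlapping genes on either strand cannot be told apart. The counts were tested as deposited with edgeR 4.0.16 (R 4.3.3, limma 3.58.1) on all 4 libraries, after filterByExpr (15398 genes) and TMM scaling, by the quasi-likelihood test with Benjamini-Hochberg adjustment over all genes tested. CPM are TMM-scaled, and TPM use the deposited exon lengths.

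As each isolate gave a library to both groups, the replicate numbers mark pairs. Isolate differences in control and in knockdown libraries had a correlation of 0.464 over 15398 genes. The main fit has no isolate term, and the replicate block is given beside it where it changes a call. P-values measure only the spread between these libraries, which may be technical in part. The smallest two-sided exact permutation p is 0.333 when the pairs are ignored, and larger when they are kept. Replicates of a group differed by more than sampling noise.

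The members and lists were chosen with earlier results of these data known, and KDM3A had been seen in those results. Members called in either fit, the 6 with the smallest p and the extremes of each role are named with values. Of other lists, the 6 called genes with the smallest p with the block are named, some of them with values. PDHA1 was added after its values were seen. Further members given by value were chosen after their values were seen. Alternatives were the replicate block, size factors of DESeq2, no low-count filter, DESeq2 1.42.0, RUVs (written out from its description, 1 factor, all genes as controls) with DESeq2, an adjusted p below 0.05, and leaving out each library. Sequence shared with other genes and 3′ untranslated regions come from the GENCODE annotation lifted to hg19. Exon overlap comes from the exon positions deposited with the counts, and promoters come from RefSeq.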

Additional observations from a re-analysis of the deposited data

How the results depend on the processing

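Of the 38 genes tested, 33 kept their direction under all 9 alternatives with a fold change, and 5 did not, each only when 1 library was left out. The range over these fits was −0.19 to 0.21 for PFKL, −0.73 to 0.084 for ALDOC, −0.093 to 0.92 for PFKFB2, −0.0030 to 0.26 for BNIP3 and −0.11 to 0.25 for ADM (log2-fold change). The count of members called up was 3 with the replicate block, without the filter, with DESeq2, with RUVs and at an adjusted p below 0.05, and 0 to 1 when a library was left out. Members called down numbered 6 with the replicate block, 5 without the filter, 3 with DESeq2, 2 with RUVs and 3 at an adjusted p below 0.05, and 0 whichever library was left out. HK2, PFKM, SLC2A3, HIF1A and NDRG1 were called with the block, without the filter, with DESeq2 and with RUVs. Of the other glycolysis and pyruvate genes, 9 were called with the block, 9 without the filter, 8 with DESeq2, 7 with RUVs, 7 at an adjusted p below 0.05, and 0 to 4 when a library was left out. For the other hypoxia pathway genes the counts were 16, 16, 13, 14 and 10, and 0 to 4. The count of all genes called up and down was 1028 and 1207 with the block, 1118 and 1275 without the filter, 725 and 817 with DESeq2, 764 and 831 with RUVs, and 10 and 21 in the fit without the block. The median of the hypoxia pathway members was −0.37 with RUVs and −0.62 to −0.33 when a library was left out. The median over all members was 0.089 with RUVs and −0.072 to 0.099 when a library was left out, and it was below 0 without control replicate 2 and without knockdown replicate 1. The cause of these shifts was not tested. Genes near 1 CPM, CA9, ANKRD37 and PDK3 among them, are limited by their counts.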

Other observations

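The isolates differed from each other within a group for some of the genes. In the control libraries the log2 difference between I90-10 and I90-79 was 1.02 for PFKFB2, 0.59 for EPAS1, 0.54 for PDK1 and −0.42 for HIF1A. In the knockdown libraries it was 0.23 for PFKFB2, 0.11 for EPAS1, 0.51 for PDK1 and −0.11 for HIF1A. PDK1 thus kept the difference, while those of EPAS1 and HIF1A were smaller, which was not tested. HK2 had the opposite pattern, with −0.28 in control and −0.78 in knockdown libraries.

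Pseudogenes named after a member took few reads. For GAPDH, 28 of 64 such genes had counts, between 91 and 132 in a library, or 0.0919% of the reads of GAPDH itself. For BNIP3, 12 of 42 had counts, which came to 0.997% of its reads.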
